A study of Mus musculus with 4 samples.

Results

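The imprinted mouse genes H19, Meg3 and Rasgrf1 each have a control region upstream that is known to receive its methylation in the paternal germline. CpG methylation was measured here in these 3 control windows and within 1 kb on each side of the 3 gene start sites, 6 regions in all, beside 1863069 autosomal regions of 1 kb and 29093 autosomal promoters. The members were set by their coordinates on GRCm38 (mm10), and a CpG was used when it had at least 5 reads in each library. This left 248 CpGs in the 3 windows of 14907672 on the autosomes.

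The data were 4 whole-genome bisulfite sequencing (WGBS) libraries, each from the brain of 1 male embryo at mid-gestation (E11.5). The embryos came from Tet1 HET dams carrying the Tet1<tm1Koh> allele, which was first made in C57BL/6 mice and is congenic here on the 129S6 background, and they were either Tet1 knockout (KO) or wild type (WT). The dams were fed a custom diet with 30 ppm folic acid (FA), called excess FA, or 3 ppm, called control FA, and the study's methods state that the custom diets also held an antibiotic. The 4 groups, excess FA KO, excess FA WT, control FA KO and control FA WT, had 1 library each. There was thus no SD and no replicate check. No 2 embryo codes in the titles share their first part, which carries the letters TP, the study's short form for timed pregnancies. Genotype or diet cannot be told apart from the individual embryo, nor, if that part names the pregnancy, from the dam and litter. The study's list of embryos for its reduced-representation bisulfite libraries, which holds the same 4 codes, lists the KO embryos with neural tube defects (NTD) and those of WT as normal, so genotype and NTD cannot be told apart either. With 2 libraries against 2, an exact permutation test cannot go below p = 0.333, and tests on reads compare libraries, not conditions. Mean coverage was 13.2, 14.3, 21.2 and 16.2 reads per listed autosomal CpG in that order of groups, and the mean CpG level was 83.5%, 81.4%, 82.8% and 82.1%.

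An imprinted gene is expressed from the copy of one parent. The control regions carry methylation on one parental copy only, set in the sperm or the egg and then kept in the cells of the body, so a level near 50% is the reference in a sample with both copies. On the maternal copy of the H19 control region the unmethylated DNA binds the insulator protein CTCF at a position between Igf2, a fetal growth factor gene, and enhancers downstream of H19, a non-coding RNA gene. The region upstream of Meg3, also called IG-DMR, controls the Dlk1 to Dio3 cluster, in which Meg3, Rian and Mirg are maternally expressed non-coding RNAs and Dlk1, Rtl1 and Dio3 are paternally expressed. Rasgrf1, a guanine nucleotide exchange factor with a role in the brain, has a methylated domain beside a tandem repeat. ZFP57, a zinc finger protein, binds the methylated hexamer TGCCGC and keeps imprints through the early embryo, while TET1 oxidises 5-methylcytosine. Bisulfite does not separate 5-methylcytosine from 5-hydroxymethylcytosine, and a pooled level does not show whether methylated and unmethylated CpGs lay on different parental copies.

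None of the 3 windows overlapped an annotated gene or exon of GENCODE vM21, so all are intergenic. The H19 window (chr7:142580200-142582200, 2001 bp) lay 2057 bp upstream of the start of H19 (ENSMUSG00000000031.16, lincRNA, minus strand, chr7:142575529-142578143). The Meg3 window (chr12:109526600-109528900, 2301 bp) lay 12101 bp upstream of Meg3 (ENSMUSG00000021268.17, lincRNA, plus strand, chr12:109541001-109571726). The Rasgrf1 window (chr9:89870200-89879900, 9701 bp) lay 30008 bp upstream of Rasgrf1 (ENSMUSG00000032356.12, protein coding, plus strand, chr9:89909908-90026977).

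The H19 window held 3 exact matches of the CTCF core CCGCGNGGNGGCAG, searched on both strands. They are shown 5′ to 3′ on the minus strand, the strand of H19, with the core in capitals and 15 bases on each side. The sequences here and below are the RefSeq ones of GRCm38.p6, a C57BL/6 genome. The embryos were on the 129S6 background and can differ from them in some letters. Methylation of CpGs in CTCF sites is known to block CTCF. Sites are numbered from the H19 side (chr7:142580294-142580337, chr7:142580749-142580792 and chr7:142582019-142582062).
Site 1: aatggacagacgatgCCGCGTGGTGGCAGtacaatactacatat
Site 2: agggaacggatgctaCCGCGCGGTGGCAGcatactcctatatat
Site 3: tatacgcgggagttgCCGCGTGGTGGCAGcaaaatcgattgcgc

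Only 57 matches of this core were found on chromosomes 1 to 19, and of 1197008 adjoining windows of 2001 bp 56, or 0.00468%, held at least 1 while 0 held 3. The Meg3 and Rasgrf1 windows held 0 matches, which says only that these letters are not in these windows. In the H19 window, too, a CTCF site with other letters would be missed. The hexamer TGCCGC, searched on both strands, occurred 5 times in the H19 window, 8 times in the Meg3 window and 9 times in the Rasgrf1 window. Of adjoining windows of the same length, 0.0278%, 0.00394% and 0.0336% held as many or more. Hexamers 2 and 5 of the H19 window overlap the CTCF cores of sites 1 and 3.

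The hexamers of the Meg3 and Rasgrf1 windows were gathered towards the downstream end of each window. The stretch of at most 300 bases with the most of them is shown on the plus strand, hexamers in capitals, for Meg3 (chr12:109528294-109528446, 5 hexamers and 21 CpGs) and Rasgrf1 (chr9:89879596-89879895, 6 hexamers and 28 CpGs).
Meg3: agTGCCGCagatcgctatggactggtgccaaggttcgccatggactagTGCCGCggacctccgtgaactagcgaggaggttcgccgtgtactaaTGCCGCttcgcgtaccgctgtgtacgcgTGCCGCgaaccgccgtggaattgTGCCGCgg
Rasgrf1: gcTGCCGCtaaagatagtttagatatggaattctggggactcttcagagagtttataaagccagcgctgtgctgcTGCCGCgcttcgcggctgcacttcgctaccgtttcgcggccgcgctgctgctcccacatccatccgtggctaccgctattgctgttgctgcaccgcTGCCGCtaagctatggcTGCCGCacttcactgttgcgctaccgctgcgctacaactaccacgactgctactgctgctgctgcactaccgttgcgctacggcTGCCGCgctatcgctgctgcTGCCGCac

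The tandem repeat beyond the Rasgrf1 window had a unit of 40 bases and began 1159 bp after the window (chr9:89881060-89881420). Its 361 bp hold 9 CpGs in the reference, and 0 of them were listed in any library. The values below therefore say nothing about the repeat. A run of 3 units (chr9:89881077-89881196, plus strand, the middle unit in capitals) shows the repetition.
Repeat: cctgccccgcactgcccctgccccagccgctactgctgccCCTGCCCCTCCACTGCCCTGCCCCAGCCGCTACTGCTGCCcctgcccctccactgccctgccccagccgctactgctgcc

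With the window edges as given, all 3 windows were above 50% in all 4 libraries; shortened by 20% at each end, H19 in excess FA KO was at 47.8%. The level is the share of methylated reads summed over the CpGs of the window, given with its 95% Wilson interval, which covers counting error only. A read counts at each CpG it covers, so the counts are not independent and the intervals can be too narrow. The H19 window (57 of 62 listed CpGs, 733 to 1014 CpG reads) stood at 54.8% (51.2 to 58.4) in excess FA KO, 54.8% (51.3 to 58.3) in excess FA WT, 61.6% (58.6 to 64.6) in control FA KO and 57.2% (53.9 to 60.5) in control FA WT. It was the window nearest to 50% in both excess FA libraries, and the Rasgrf1 window was nearest in both control FA libraries, but the intervals of these 2 windows overlapped in each library. The Meg3 window (85 of 87 CpGs, 1018 to 2118 CpG reads) was the highest, at 70.2% (67.4 to 73.0), 66.9% (64.2 to 69.4), 67.3% (65.3 to 69.3) and 65.9% (63.2 to 68.5) in the same order. The Rasgrf1 window (106 of 127 CpGs, 1481 to 2419 CpG reads) stood at 58.0% (55.5 to 60.5), 55.6% (53.1 to 58.1), 59.2% (57.2 to 61.1) and 55.5% (53.2 to 57.8). The lower bound of the interval was above 50% in all 12 values. The start sites of the genes were a mixed group on the same scale, from 79.4% at H19 to 1.12% at Rasgrf1.

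**Figure D1:**
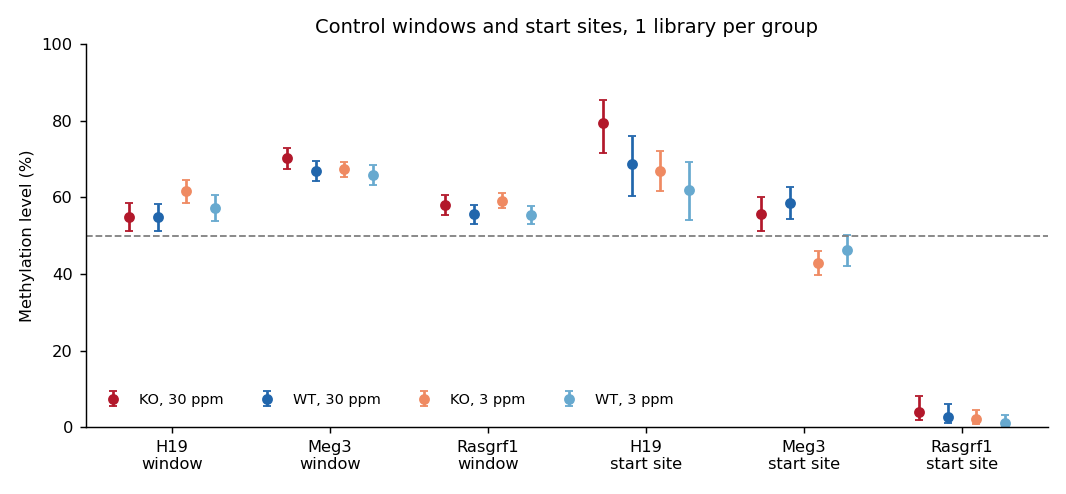
Methylation level (%) of the 3 control windows and of the 3 start sites (1 kb on each side), 1 point per library, with 95% Wilson intervals of the CpG read counts and a dashed line at 50%. The 12 window levels lie between 54.8% and 70.2%, all above 50%, while the start sites range from 1.12% to 79.4%.

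Intermediate CpGs took a larger share of these windows than of the autosomes, and were the majority in each window and library except Meg3 in excess FA KO. In the H19 window 50 to 55 of 57 CpGs, 87.7% to 96.5%, had a level from 25% to 75%, against 12.4% to 15.9% of all autosomal CpGs. The share was 42.4% in excess FA KO and 69.4% to 76.5% in the other libraries for the Meg3 window, where the remaining CpGs were above 75%, except for 3 in excess FA WT that were under 25%. It was 67.9% to 81.1% for the Rasgrf1 window. The SD over CpGs was 11.3 to 13.1 points at H19, 15.2 to 17.7 at Meg3 and 18.7 to 21.7 at Rasgrf1. The ratio of the variance over CpGs to that of counting alone was 0.645 to 1.12 at H19, 1.43 to 3.28 at Meg3 and 1.83 to 3.82 at Rasgrf1. It treats CpGs as independent although neighbouring CpGs share reads, so it cannot show whether only counting error is present at H19. In 1 kb tiles of a fixed grid, 3 of the 15 tiles that overlap the windows (1 at H19, 2 at Rasgrf1) were between 40% and 60% in all 4 libraries, where 1.19% of all tiles were. The same figures for a range of 30% to 70% were 6 of 15 and 5.28%. The split by gene depended on the grid: shifted by 500 bp, 4 of 16 tiles were between 40% and 60%, 0 at H19, 1 at Meg3 and 3 at Rasgrf1, and after thinning 2 of 15 were.

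The windows differed in how the level ran along them. At H19 the 4 bins of 500 bp from the window start to 2000 bp stood at 45.9% to 67.8%, and the order of the libraries changed from bin to bin, while 10 kb on either side stood at 76.2% to 85.1%. At Meg3 the first 500 bp of the window were at 76.5% to 86.2%, and the bin from 1000 bp was at 43.9% to 62.7%. The 10 kb before the Meg3 window were lower than the window, at 58.7% to 63.1%, and the 10 kb after it higher, at 72.6% to 78.3%, so the window had no uniform surroundings. The Rasgrf1 window was the most uneven. Its first 500 bp were at 4.92% to 12.1%, the bin from 3000 bp, with 2 CpGs, at 80% to 93.3%, and the bin from 7000 bp at 34.5% to 53.2%. The level of 55.5% to 59.2% over the whole 9701 bp is thus a mean of unmethylated, highly methylated and intermediate stretches. The 10 kb before the Rasgrf1 window stood at 58.6% to 62.6% and the 10 kb after it at 59.6% to 66.1%. Both were above the window in each library, but not far from it. Low bins also lay before the window, the one that begins 2000 bp before it at 0.935% to 3.03%. The last 500 bp bin of the window, which holds 4 of the 6 gathered hexamers and reaches past the window end, stood at 60.8% to 70.1%.

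**Figure D2:**
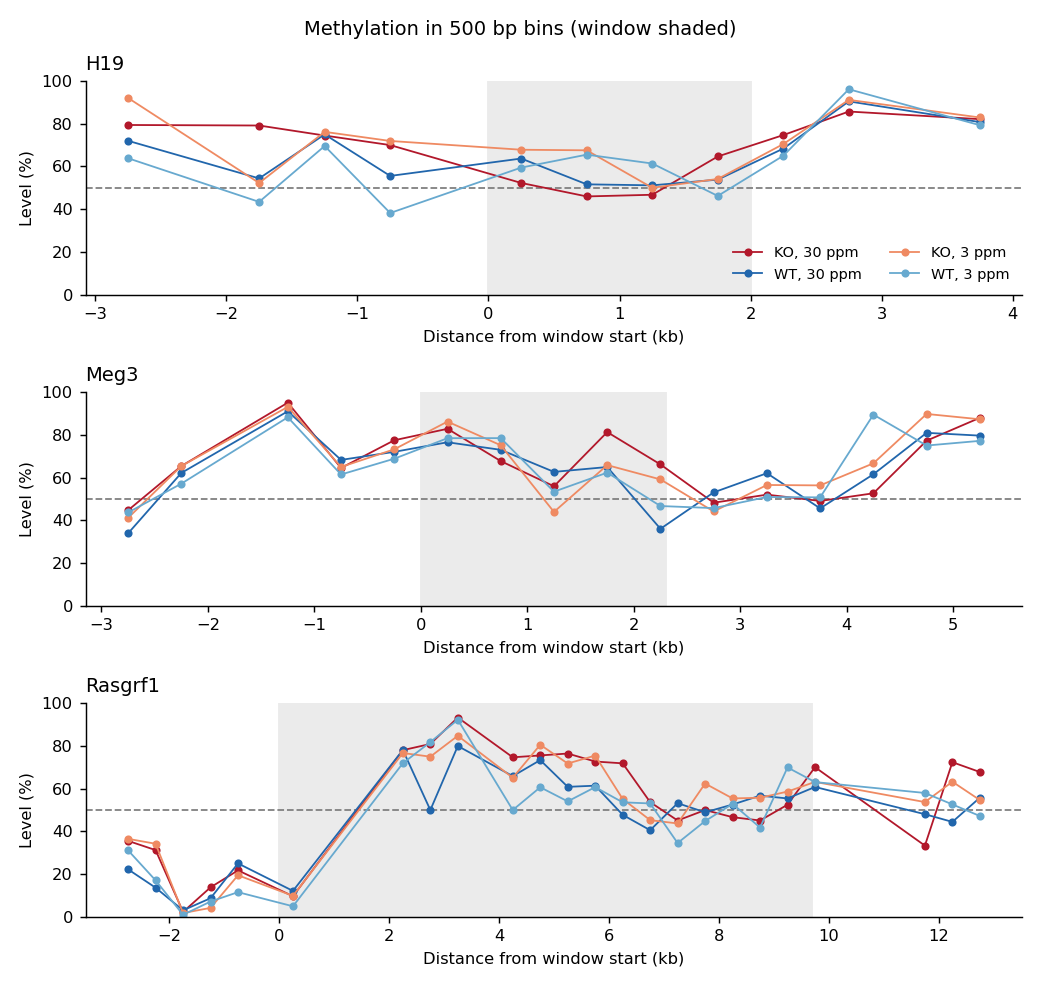
Methylation level (%) in 500 bp bins against distance from the window start (kb, in chromosome direction), 1 line per library, from 3 kb before to about 3 kb after each shaded window; lines join the bins with at least 2 CpGs used. The H19 bins that begin inside the window lie between 45.9% and 74.7%, Meg3 is high at its start and between 44.1% and 62.0% in the 1000 bp beyond its last bin, and Rasgrf1 runs from under 13% at its start through 80% to 93.3% near 3 kb to 34.5% to 53.2% near 7 kb.

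At the 3 exact CTCF core matches of H19, called sites here, the levels were intermediate in every library. The 7 CpGs inside the 3 cores together stood at 48.9% in excess FA KO (92 CpG reads), 53.2% in excess FA WT (79), 63.5% in control FA KO (115) and 59.4% in control FA WT (106). The other 50 CpGs of the window stood at 55.7%, 55.0%, 61.4% and 56.9%. Site 1 was at 40%, 50%, 61.9% and 66.7% and site 2 at 40.9%, 50%, 60% and 61.4%. At both sites nearest to H19 each excess FA library was below each control FA library. Site 3, at the far end, had another order, 67.9%, 58.6%, 71.4% and 40%. These values rest on 16 to 45 CpG reads per site and library, and the CpGs of a site share reads. Over all autosomal matches of the core (51 CpGs used, the H19 sites among them) the level was 46.5% to 49.0%.

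Set beside the rest of the whole window, the CpGs in hexamers were close to it at H19 and Meg3 and higher at Rasgrf1. In the Meg3 window the 8 hexamer CpGs stood at 72.0%, 66.9%, 66.5% and 68.5% in the order of groups above, and the other 77 CpGs at 70.1%, 66.8%, 67.4% and 65.6%. In the Rasgrf1 window the 7 hexamer CpGs used stood at 67.01%, 63.9%, 75.7% and 68.0%, against 57.4%, 54.9%, 58.1% and 54.5% for the other 99. Those 99 include the unmethylated first 500 bp of the window. Beside all CpGs within 50 bp the Rasgrf1 hexamers had no single direction. In excess FA KO hexamer 3 stood at 85.7% against 81.6%, and hexamer 2 at 61.1% against 70%. At H19 the 4 hexamer CpGs used stood at 53.1% to 58.9%. Hexamer CpGs over all autosomes were at 84.6% to 86.8%, above each of these values.

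The first comparison asks what loss of Tet1 changed at paternal imprints. Over whole windows the KO library was level with the WT library at H19 in excess FA, and above it by a few points in the other 5 pairs. At H19 KO minus WT was 0.0208 points in excess FA (95% Newcombe interval, counting error only, -4.97 to 5.01) and 4.39 points in control FA (-0.0683 to 8.85). At Meg3 it was 3.38 points (-0.466 to 7.19) and 1.45 points (-1.85 to 4.78). At Rasgrf1 it was 2.42 points (-1.13 to 5.96) and 3.69 points (0.668 to 6.71). Of the 6 intervals only that of Rasgrf1 in control FA lay above 0. The Meg3 differences turned to -5.89 and -5.10 points when only the 36 CpGs with at least 10 reads in each library were used, and the one in excess FA was 9.002 points as a mean of CpG levels. With windows shortened by 20% at each end, 4 of the 6 differences were below 0, at H19 -3.93 points in excess FA and -1.84 in control FA and at Meg3 -0.655 and -1.21, while Rasgrf1 in excess FA rose to 7.39 points.

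At single CpGs the direction was mixed at H19 and Meg3 and leaned to KO at Rasgrf1. KO was above WT in both diets at 40 of 106 CpGs of the Rasgrf1 window (37.7%) and below in both at 11 (10.4%), where all autosomal CpGs gave 22.6% and 17.9%. The Meg3 window gave 28 and 21 of 85 CpGs, and the H19 window 15 and 17 of 57. CpGs of one window share reads and molecules, so these are counts with no test.

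In the 1 kb tiles 2 of 15 were called higher in KO than in WT in excess FA, and 0 lower, against 1.18% of all tiles called in either direction. A call needed an adjusted p under 0.05 in Fisher's exact test (two-sided, Benjamini-Hochberg over all 1863069 tiles) and a difference of at least 10 points. The Rasgrf1 tile chr9:89876001-89877000 stood at 71.4% in KO and 53.1% in WT (224 and 254 CpG reads, adjusted p = 0.00811, Fisher's exact test). The Meg3 tile chr12:109528001-109529000, which holds the 5 gathered hexamers, stood at 78.0% in KO and 62.3% in WT (295 and 565 CpG reads, adjusted p = 0.000828, Fisher's exact test). In the 153 bp of the printed Meg3 stretch itself the levels were 84.8% in excess FA KO, 63.5% in excess FA WT, 68.5% in control FA KO and 65.1% in control FA WT, on 138, 323, 574 and 304 CpG reads. The one library that stood apart was also the one with the fewest reads there, and the part of this in the result was not tested. After thinning each library to the lowest genome mean of reads per CpG both tiles were still called (20 points at Rasgrf1 and 15.4 at Meg3), as was the Rasgrf1 tile with at least 10 reads. On a grid shifted by 500 bp 0 tiles were called in this pair, where the Rasgrf1 tile chr9:89876501-89877500 had 14.3 points (adjusted p = 0.0838, Fisher's exact test) and the Meg3 tile that holds the gathered hexamers, chr12:109527501-109528500, had 1.25 points. With at least 10 reads the Meg3 tile kept 3 CpGs and its difference turned to -14.4 points, not called (adjusted p = 0.821, Fisher's exact test).

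In control FA 1 of 15 tiles was called higher in KO and 0 lower, against 1.21% of all tiles. It was another tile of Rasgrf1, chr9:89874001-89875000, at 74.8% in KO and 55.8% in WT (218 and 156 CpG reads, adjusted p = 0.0169, Fisher's exact test). After thinning the difference was 20.2 points and was not called (adjusted p = 0.0836, Fisher's exact test). In both called Rasgrf1 tiles the KO library was above the WT library in the other diet too, by 4.19 points in the first (control FA) and 7.05 in the second (excess FA). Among all tiles with a mean level of 30% to 70%, as 11 of the 15 had, 5.61% and 5.74% were called in excess and control FA. The median difference over the 15 tiles was 5.91 points in excess FA and 4.58 in control FA, against 1.23 and -0.159 over all tiles and 4.39 and 2.27 over tiles of 30% to 70%. No difference between the diets in KO minus WT was called in the 15 tiles (Wald test, adjusted p under 0.05, against 0.0692% of all tiles).

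limma on all 4 libraries, the only fit in which the spread between libraries enters, called 0 tiles for genotype and 0 for diet genome-wide, with 7.75% and 4.89% of tiles under an unadjusted p of 0.05. In the 15 tiles 0 were under an unadjusted p of 0.05 for either factor on this log scale. The smallest adjusted p in limma was 0.685 for genotype and 1 for diet. On the fraction scale 5 of 15 were under 0.05 unadjusted for genotype, all 5 higher in KO, and 2 for diet, against 8.58% and 4.68% of all tiles. None passed the adjustment there either, with a smallest adjusted p of 0.377 for genotype and 1 for diet in limma.

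**Figure D3:**
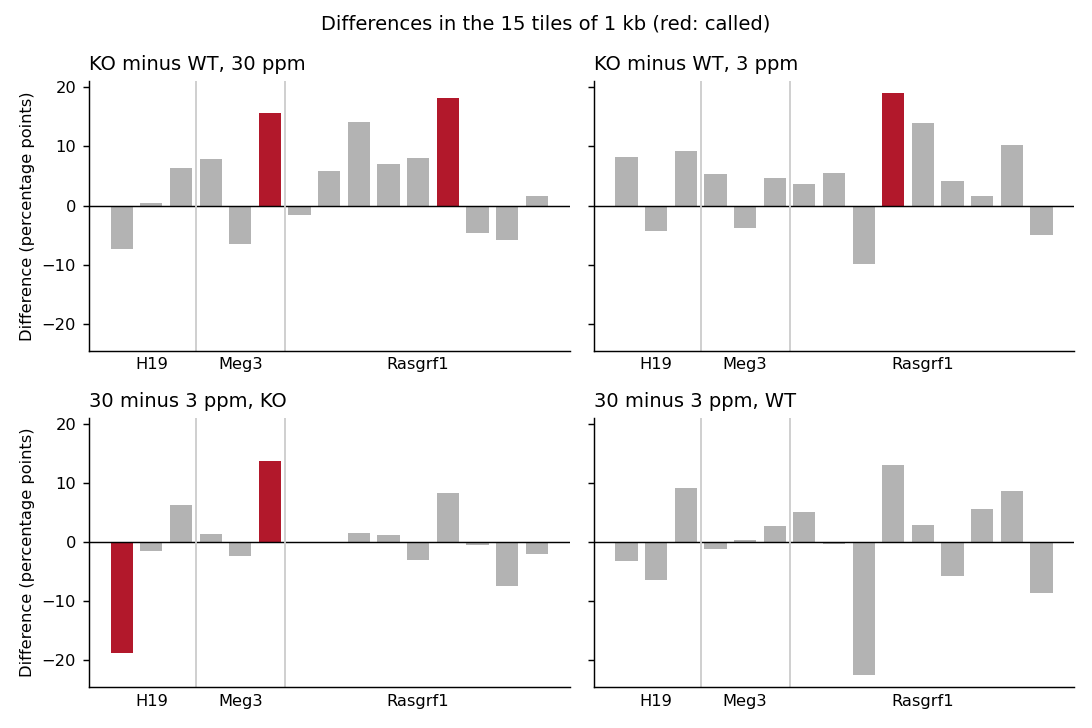
Difference in methylation (percentage points) in each of the 15 tiles of 1 kb, in chromosome order within each gene, for the 4 pairs of libraries; red bars were called by Fisher's exact test. KO minus WT was called in 2 tiles in excess FA and in 1 in control FA, all higher in KO; excess minus control FA was called once lower (H19) and once higher (Meg3) in KO and not in WT.

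The second comparison asks what excess FA changed. Over whole windows excess minus control FA in KO was -6.79 points at H19 (-11.46 to -2.11), 2.91 points at Meg3 (-0.579 to 6.31) and -1.16 points at Rasgrf1 (-4.35 to 2.02). In WT it was -2.42 points (-7.21 to 2.38), 0.972 points (-2.74 to 4.68) and 0.116 points (-3.28 to 3.51). Only the H19 interval in KO lay on one side of 0. With windows shortened by 20% at each end the H19 difference was -11.1 points in KO and -9.03 points in WT, and that of Rasgrf1 in KO turned to 2.55 points. The Meg3 difference in KO turned to -0.885 points with at least 10 reads and was 6.71 points as a mean of CpG levels. In tiles 1 of 15 was called lower and 1 higher in excess FA in KO, against 0.0683% of all tiles called, and 0 of 15 in WT, against 0.0470%. Among tiles of 30% to 70% the shares were 0.254% and 0.212%. The lower one was the H19 tile chr7:142580001-142581000, which holds CTCF sites 1 and 2, at 49.2% in excess FA and 68.0% in control FA (305 and 487 CpG reads, adjusted p = 0.00142, Fisher's exact test). The same tile stood at 56.5% and 59.8% in WT, where the difference of -3.22 points was not called. The higher one was the Meg3 tile named above, at 78.0% and 64.2% (adjusted p = 0.0225, Fisher's exact test), so it rests on the same KO library in excess FA as the genotype call. These comparisons share that library. In WT the Meg3 tile stood at 62.3% in excess FA and 59.6% in control FA. With at least 10 reads the H19 tile was not called, at -18.1 points (adjusted p = 0.121, Fisher's exact test), nor the Meg3 tile, at 5.72 points on 3 CpGs (adjusted p = 1, Fisher's exact test). The Meg3 call was also lost after thinning, at 11.96 points (adjusted p = 0.202, Fisher's exact test).

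The start sites were of 3 kinds. Rasgrf1 was unmethylated, at 4.12% in excess FA KO, 2.65% in excess FA WT, 2.08% in control FA KO and 1.12% in control FA WT, on 23 of 118 listed CpGs. With 1 kb on each side H19 was above 50% in all 4 libraries, at 79.4%, 68.7%, 66.99% and 61.9%, but on 15 of 53 CpGs only, none of them in the first 500 bp of the gene. With 500 bp on each side, which leaves 3 CpGs, it was at 87.1%, 50%, 47.6% and 48%. Coverage there was 0.258 to 0.646 of the autosomal mean, and at the Rasgrf1 start site 0.244 to 0.429, where the windows had 0.861 to 1.21. With 1 kb on each side neither gene had a called difference in any of the 4 pairs, with adjusted p from 0.168 to 0.800 in Fisher's exact test. Of all promoters 14.0% and 14.4% were called for genotype and 1.02% and 0.780% for diet. With 2.5 kb on each side KO minus WT at H19 in control FA was 7.59 points (62 CpGs, adjusted p = 0.000308, Fisher's exact test). This difference passed the test and missed only the 10 points a call needs. At this width the region reaches into the H19 control window, so the 2 regions share CpGs.

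With 1 kb on each side, Meg3 was the only one of the 3 start sites with a called difference, and it was between the diets. In excess FA it stood at 55.6% in KO and 58.6% in WT, and in control FA at 42.8% and 46.2% (49 of 69 CpGs, 473 to 904 CpG reads). Both excess FA libraries were thus above 50% and above both control FA libraries. The difference was 12.8 points in KO (95% Newcombe interval 7.24 to 18.2, adjusted p = 0.00239) and 12.5 points in WT (6.54 to 18.3, adjusted p = 0.0127) in Fisher's exact test over all promoters, where 1.02% of promoters were called in KO and 0.780% in WT in either direction. KO minus WT was -3.03 points in excess FA and -3.34 in control FA, neither called, against 14.0% and 14.4% of promoters called. The Wald test of KO minus WT between the diets had adjusted p = 0.989, where 1.34% of promoters passed. With at least 10 reads per CpG, which leaves 13 CpGs, neither diet difference was called, though both kept their direction and size (12.5 and 13.2 points, adjusted p = 0.387 and 0.349, Fisher's exact test). The call in WT was also lost after thinning (10.7 points, adjusted p = 0.130, Fisher's exact test). With 2.5 kb on each side it missed only the 10-point minimum (9.41 points, adjusted p = 0.0195, Fisher's exact test). The call in KO was lost with 500 bp on each side (9.55 points, adjusted p = 0.240, Fisher's exact test). At this narrower width the WT difference was 26.1 points and called, and so were KO minus WT at Meg3 in excess FA (-15.3 points) and, on 3 CpGs of H19, KO minus WT in excess FA (37.1 points) and excess minus control FA in KO (39.5 points).

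The CpGs behind this difference were not the same in both genotypes. In the 500 bp that begin 1000 bp upstream KO stood at 85.1% in excess FA and 43.3% in control FA, while WT ran the other way, at 48.7% and 64.8%. In the first 500 bp of the gene WT stood at 71.4% and 46.0%, and KO at 38.4% and 40.1%. Only the 500 bp just upstream of the start were higher in excess FA in both, at 61.3% and 45.1% in KO and 63.5% and 36.3% in WT, on 171 to 266 CpG reads. Of the deposited lists, 2 lists of regions higher in excess FA each held a region here, 1 of the 139 for KO and 1 of the 79 for WT, where 0.0481% and 0.0928% of promoters were overlapped. The KO region (chr12:109540121-109540319) had 81.2% and 33.8% in KO but 40.6% and 66.7% in WT, on 3 CpGs and 16 to 65 CpG reads. The WT region (chr12:109540769-109540936) had 61.2% and 29.4% in WT. In KO it had 61.6% and 46.9%, a difference of 14.8 points (1.43 to 27.2) on 8 CpGs with 86 and 143 CpG reads. These CpGs lie in the 500 bp named above as higher in both genotypes, so the KO value is no separate support. KO minus WT in the WT region was 0.434 points (-14.6 to 15.8) in excess FA and 17.4 points (3.28 to 30.0) in control FA. None of the 8 deposited lists of higher or lower regions overlapped any of the 3 control windows, where 2.77% and 3.26% of promoters were overlapped by the lists of regions higher in KO and under 0.1% by each of the other 6.

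The RefSeq promoter of Meg3 (chr12:109540746-109541045, GRCm38.p6, plus strand) covers this WT region and is printed with its 13 CpGs in capitals. It was picked because it overlaps the 500 bp that were higher in excess FA in both genotypes. It largely holds the same CpGs as the WT region, so its values are no separate support. On 12 of these CpGs it stood in excess FA at 64.8% in KO and 59.6% in WT, and in control FA at 47.6% and 29.4%. It holds 1 TGCCGC hexamer (minus strand), as 11.6% of 32851 RefSeq promoters hold at least 1. Of the 3 members 2 had a RefSeq promoter sequence, and H19 had none.
Meg3 promoter: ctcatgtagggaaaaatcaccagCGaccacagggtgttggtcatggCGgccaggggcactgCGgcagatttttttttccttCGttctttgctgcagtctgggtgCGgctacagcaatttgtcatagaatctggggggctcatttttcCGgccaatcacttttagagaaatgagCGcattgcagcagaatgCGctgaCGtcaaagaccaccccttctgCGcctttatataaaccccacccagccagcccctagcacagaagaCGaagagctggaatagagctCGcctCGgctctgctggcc

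**Figure D4:**
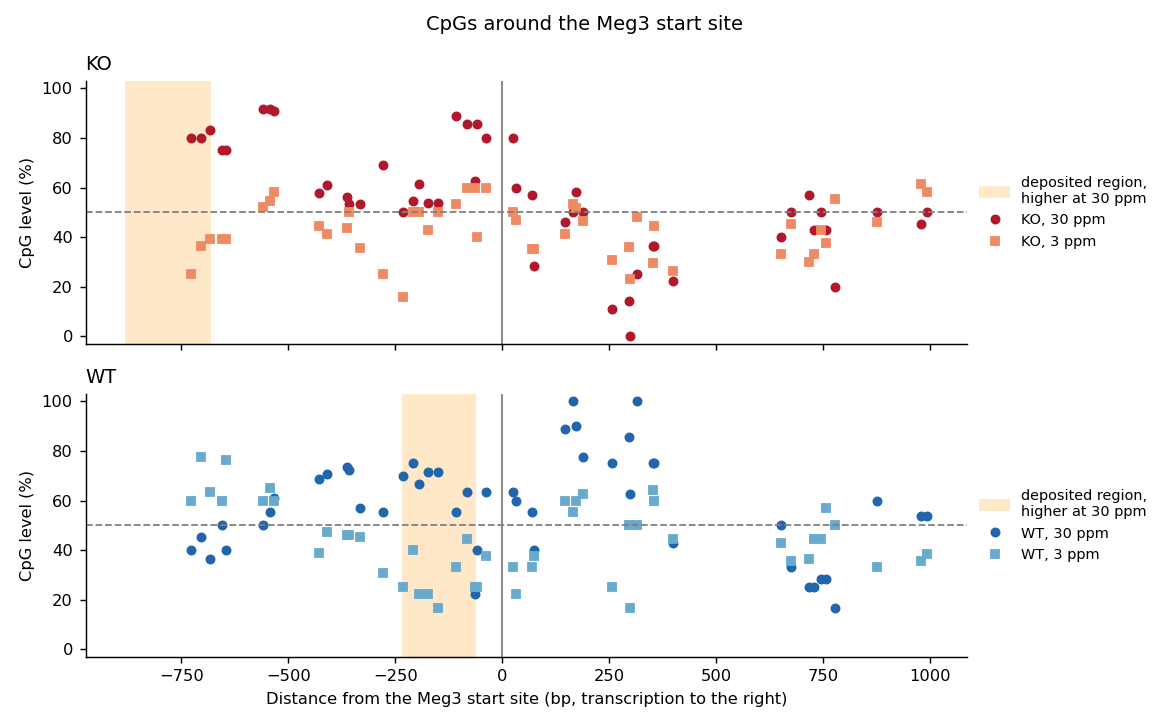
Level (%) of each used CpG within 1 kb of the Meg3 start site against distance from it (bp), in KO (top) and WT (bottom), circles for excess FA (30 ppm) and squares for control FA (3 ppm); shading marks the deposited region higher in excess FA in that genotype. Blocks of neighbouring CpGs share reads, and the excess FA points lie above the control FA points in different blocks in KO and WT except just upstream of the start.

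Among 9 other genes of paternally imprinted clusters, 0 promoters were called between KO and WT in excess FA and 2 in control FA, both higher in KO, where 14.0% and 14.4% of all promoters were called. The 2 were genes of the Meg3 cluster. Dlk1, a transmembrane ligand of the Notch pathway family, stood in control FA at 28.8% in KO and 7.89% in WT (adjusted p = 2.11e-05, Fisher's exact test), and Dio3, which inactivates thyroid hormone, at 15.5% and 4.46% (adjusted p = 0.00962, Fisher's exact test). In excess FA the values were 21.0% and 15.04% for Dlk1 and 13.7% and 2.63% for Dio3. The Dio3 difference was of the same size in both diets, 11.1 points in excess FA (adjusted p = 0.0567, Fisher's exact test) and 11.0 in control FA. The used CpGs were 16 of 78 listed at Dlk1 and 14 of 187 at Dio3. The diets gave 0 called of 9 in either genotype, where 1.02% (KO) and 0.780% (WT) of all promoters were called. Gpr1, beside the paternally imprinted Zdbf2 region, was the only one from 30% to 50% throughout, at 36.5% to 41.6%. Igf2 stood at 50.0% to 67.5% on 3 CpGs, Zdbf2 at 5.78% to 11.6%, and Rtl1, Rian, Mirg and Ins2 at 80.7% to 95.8%; the annotated start of Ins2 lies upstream of its usual one.

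Promoters with maternal germline imprints, 12 of them, gave the opposite parental origin on the same scale. They lay between 41.5% and 82.5%, 10 of 12 above 50% in all 4 libraries and 0 below it in all 4, while the 3 paternal windows, with the edges as given, were above 50% in all 4. KO minus WT in excess FA gave 1 called higher, Plagl1 (17.2 points), and 2 lower, Airn (-17.8 points) and Peg10 (-12.1 points). In control FA 1 was higher, Nnat (16.3 points). Excess minus control FA gave 1 higher in KO, Plagl1 (14.3 points), 3 higher in WT, Peg3 (13.7 points), Nnat (15.2 points) and Peg13 (10.2 points), and 0 lower. These shares stand beside the 14.0%, 14.4%, 1.02% and 0.780% of all promoters called, which are not matched for level. The median difference of excess minus control FA was -3.75 points in KO and 6.33 in WT, against 0.398 and -0.196 over all promoters. KO was above WT at 5 of the 12 in excess FA and at 11 of the 12 in control FA, with medians of -2.79 and 3.53 points, against 3.47 and 2.63 over all promoters. Annotated starts of Mest, Snrpn and Plagl1 can lie away from the imprinted promoter.

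Genes that keep imprints were mostly outside the intermediate range. Of 8 such promoters 0 were called in any of the 4 pairs, where 14.0% and 14.4% of all promoters were called for genotype and 1.02% and 0.780% for diet. Zfp445, another zinc finger protein that keeps imprints, was the only one between 30% and 70% in all libraries, at 39.1% to 47.1%. Ctcf itself was at 0 to 4.96%, on 9 of 190 listed CpGs. Uhrf1, a partner of the maintenance methyltransferase, stood at 14.99% to 25.4%, and Zfp57, Trim28, Dppa3, Ctcfl and Dnmt1 at 76.5% to 94.3%. The annotated starts of Trim28 and Dnmt1 had only 15 and 28 listed CpGs, against 190 at Ctcf. Such starts can lie away from the promoter in use, which was not tested.

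**Figure D5:**
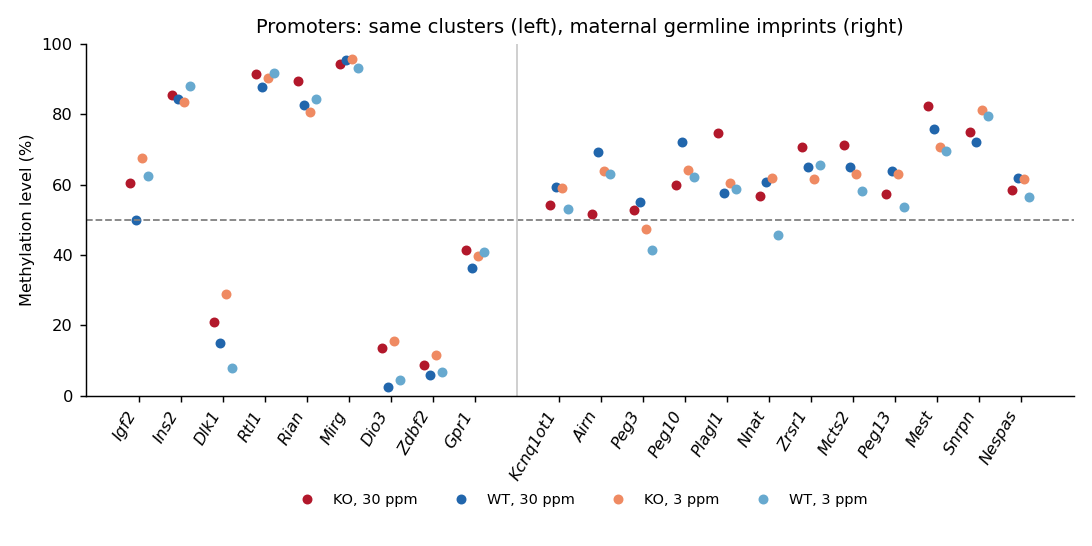
Methylation level (%) of promoters (1 kb on each side of the annotated start), 1 point per library, for 9 genes of paternally imprinted clusters (left) and 12 with maternal germline imprints (right), with a dashed line at 50%. The cluster promoters spread from 2.63% to 95.8%, while the maternal ones lie between 41.5% and 82.5%.

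A level near 50% was not rare among promoters. Of 29093, 3.74% were between 40% and 60% in all 4 libraries, and of the 3 members Meg3 was one. Ranked by the mean distance of the 4 libraries from 50% among 23990 promoters with at least 10 CpGs, the Meg3 start site was at rank 1165 (6.32 points), that of H19 at 6140 and that of Rasgrf1 at 23068. The 10 nearest, at 0.892 to 1.37 points, held no gene of the lists above. Gm41148, Hps4, Hddc3, Mob3b and Cib2 led them.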

How the data were processed

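WGBS libraries of 4 embryonic brains were used, 1 per group, with groups taken from the titles. According to the methods, reads were trimmed by the authors (Trim Galore 0.6.10), aligned to GRCm38.p6 (Bismark 0.23.1) and deduplicated, and the 2 strands of a CpG were combined. Deposited tables hold the fraction of methylated reads at each CpG, as the authors computed it, and the count of reads, not normalised. Depth was 13.2 to 21.2 reads per listed autosomal CpG, and intervals and tests cover counting error only, since reads at one site need not be independent molecules. The deposited region lists, made by the authors with DSS between single libraries, hold positions only. Here the fraction times the read count was rounded to methylated reads, and CpGs covered by 5 or more reads in every library were summed per window, per promoter (1 kb on each side of the GENCODE vM21 start) and per tile of 1 kb, promoters and tiles with at least 3 CpGs. Levels had Wilson intervals and differences Newcombe intervals. Fisher's exact test and the Wald test of 2 log odds ratios (0.5 added to each count) were adjusted by Benjamini-Hochberg over all tiles or promoters. limma 3.58.1 (R 4.3.3) tested log2((methylated + 1)/(unmethylated + 1)) for genotype and diet. Scripts ran in Python 3.11.15 with scipy 1.17.1, and the tests were checked on simulated data. The windows, gene lists and motifs were chosen with earlier results of these data known. The text names the 3 members, 9 other genes of paternally imprinted clusters, 12 maternal imprints, 8 genes that keep imprints, and the promoters nearest to 50%.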

Additional observations from a re-analysis of the deposited data

Results flagged for a closer look

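For no tile of the control windows and no start site of H19, Meg3 or Rasgrf1 did KO minus WT pass the test of a difference between the diets. In the list of maternal imprints 3 promoters did, by the Wald test adjusted over all promoters. Of all promoters, which are not matched for level, 1.34% passed. Each of the 3 had KO below WT in excess FA and above it in control FA. Nnat, an imprinted gene of the developing brain, had -4.20 and 16.3 points (adjusted p = 7.17e-07, Wald test). Peg10, a retrotransposon-derived gene, had -12.1 and 2.12 points (adjusted p = 0.000781, Wald test), and Peg13, a non-coding RNA gene, had -6.70 and 9.22 points (adjusted p = 0.000764, Wald test). These tests compare 4 single libraries.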

How the results depend on the processing

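With 1 library per group, no comparison can be repeated without one of its libraries. No paired analysis was possible because each group has 1 library and the labels give no shared replicate number. Depth of 13.2 to 21.2 reads per CpG limits single CpGs, and the cause of the shifts below was not tested unless the setting itself leaves fewer CpGs. Levels and window differences that left their interval follow, and start-site differences where the call changed. Where several are given, the order is excess FA KO, excess FA WT, control FA KO, control FA WT. With windows shortened by 20% at each end, H19 stood at 47.8% in excess FA KO and 60.8% in control FA WT, with KO minus WT in control FA of -1.84 points and excess minus control FA in WT of -9.03. Meg3 then stood at 67.1% in excess FA KO and 64.3% in control FA KO, with KO minus WT in excess FA of -0.655. Rasgrf1 stood at 65.8%, 58.4% and 63.2% in the first 3 libraries, with KO minus WT in excess FA of 7.39 and excess minus control FA in KO of 2.55. With at least 10 reads (36 CpGs) Meg3 stood at 64.7% in excess FA KO, 70.6% in excess FA WT and 70.7% in control FA WT, with KO minus WT of -5.89 in excess FA and -5.10 in control FA and excess minus control FA in KO of -0.885. As a mean of CpG levels Meg3 stood at 74.2% in excess FA KO, with KO minus WT in excess FA of 9.002 and excess minus control FA in KO of 6.71.

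For start sites, 500 bp on each side left 3 CpGs at H19, at 87.1%, 50%, 47.6% and 48%, with KO minus WT in excess FA (37.1 points) and excess minus control FA in KO (39.5 points) called. At Meg3 it gave 67.1% in excess FA WT and 41.0% in control FA WT, KO minus WT in excess FA of -15.3 points, now called, and excess minus control FA in KO of 9.55, no longer called, while in WT it rose to 26.1. Rasgrf1 gave 1.79% in excess FA KO and 0 in control FA KO. With 2.5 kb on each side H19 stood at 76.8%, 79.2% and 71.6% in the last 3 libraries, Meg3 at 47.7% in control FA KO with excess minus control FA in WT of 9.41, and Rasgrf1 at 12.3%, 7.28%, 10.3% and 5.59%. At this width, which takes in part of the H19 control window, excess minus control FA in KO at H19 was -0.307 points. That lay outside its interval at 1 kb (3.19 to 20.5), though it was not called at either width. With at least 10 reads Meg3 stood at 60.1%, 65.2%, 47.7% and 52%, and excess minus control FA of 12.5 in KO and 13.2 in WT was not called. After thinning each library to the lowest genome mean of reads per CpG, which leaves local depth unequal, the WT value was 10.7 and not called. Tiles called for KO minus WT in excess FA fell from 2 to 1 with at least 10 reads, where the Meg3 tile kept 3 CpGs, and to 0 on a grid shifted by 500 bp. In control FA they fell from 1 to 0 after thinning. For excess minus control FA in KO they fell from 2 to 0 with at least 10 reads, and to 1, at H19, after thinning and on the shifted grid. With a range of 30% to 70%, 6 of 15 tiles were intermediate, against 3. The 236 values counted as unchanged stayed within their interval or, where a test applied, on their side of the threshold.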
